A study of Homo sapiens with 6 samples.

Results

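The RNA of 41 human genes of nucleocytoplasmic transport was measured in T98G cells, a human glioblastoma line, with and without knockdown of the protein kinase DYRK1A. The genes were taken by name from the normalized gene table. They comprised 21 genes for proteins of the nuclear pore, 4 genes of the Ran GTPase cycle and 16 genes for transport receptors, out of 23030 genes in that table. All 41 were found, and 39 passed the filter on low values. The change in RNA was not a rule for choosing them, but they were chosen with earlier results of these data known.

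Nuclear pore complexes are channels through the nuclear envelope, built from rings of scaffold proteins and lined by flexible proteins with phenylalanine-glycine repeats. Importins carry cargo into the nucleus and exportins carry it out, and the small GTPase RAN, bound to GTP in the nucleus and to GDP in the cytoplasm, gives this traffic its direction. Dividing cells take the pores apart in mitosis and build new ones as they grow, and the receptors work on both new and old pores.

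The study compared cells infected with a lentivirus carrying a control hairpin RNA (shControl) with cells infected with one carrying a hairpin against DYRK1A (shDYRK1A), 3 libraries each, labelled 1A, 1B and 1C. Both arms were selected with puromycin, so the controls too had been infected and selected. All libraries came from 1 line, and only 1 hairpin against DYRK1A is named for them. Elsewhere the paper also used another hairpin, for example to recheck selected ribosomal protein transcripts by RT-qPCR. Equal numbers of T98G cells had been mixed with a fixed number of Drosophila Kc167 cells, and the fly reads set the scale of each library, so a value here is a human count relative to the fly RNA in the same tube. On this scale fewer human cells in the tube and less RNA per cell cannot be told apart. The study's methods state in general that experiments were repeated independently, but the labels do not say whether the libraries of a group came from separate cultures. Libraries of 1 group differed by more than counting noise, with a chi-square per gene of 4.76 to 19.9 between pairs. The p-values measure the spread between these libraries, which may be technical.

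The libraries held 33708297 to 42154438 counts in genes. DYRK1A itself stood at 2227, 2234 and 1895 normalized counts in shControl and at 1482, 1056 and 1285 in shDYRK1A, with no overlap, a log2 fold change of -0.73 ± 0.15 (SE; adjusted p = 5.33e-06, edgeR quasi-likelihood test). Of the 10 glioblastoma and glial markers examined, VIM, CD44 and FN1 were abundant and were the only 3 to pass the filter, and VIM and FN1 were called lower, at -0.72 and -0.82. S100B had no count in any library, GFAP and SOX2 had at most a few, and OLIG2, NES and PDGFRA stayed at 35.4 to 84.0, 42.8 to 96.5 and 124 to 237 normalized counts. CHI3L1, under the filter and not tested, had 170, 227 and 192 normalized counts in shControl against 508, 410 and 449 after knockdown, with no overlap. The summed level of the 10 markers was 171296 to 207656 in shControl and 118765 to 139617 in shDYRK1A, and its part in the results was not tested. Across all 9697 genes that passed the filter the median log2 fold change was -0.40 under the fly-derived scaling and 0.00 under TMM scaling, which sets the bulk of the human genes equal. Each fold change below therefore stands on a general downward shift, and values under TMM show where a gene lay relative to the other human genes.

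Under the fly-derived scaling, all 39 tested members had a negative log2 fold change, although 8 of them (NUP98, TPR, NUP62, NUP188, RANGAP1, KPNA1, XPO6 and KPNA2) turned positive under TMM scaling. The median over the members was -0.51, against -0.40 over all genes tested. RNA of 38 members fell with an adjusted p below 0.05, where 63.4% of all tested genes did, and 8 members also passed the fold threshold of 0.7 on the log2 scale. That threshold together with the adjusted p called 14.3% of all tested genes lower. No member was called higher by edgeR or by DESeq2, and with all fold changes negative none was higher at an unadjusted p below 0.05, whereas 0.278% of all tested genes were called higher. Leaving out library shControl 1C raised the number of members called lower from 8 to 13, and leaving out library shDYRK1A 1A raised it to 12. The count of members below the adjusted p alone dropped from 38 to 25 without library shControl 1A. The same omissions moved the whole table: the share of tested genes called lower moved from 14.3% to 21.6% and 21.5%, respectively, and the share below the adjusted p alone from 63.4% to 41.8%.

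The 8 members called lower were NUP107, NUP155, NUP43 and NUP50 of the pore and IPO7, KPNA3, XPO1 and TNPO1 of the receptors. The weakest of them, NUP50, lay at -0.70, and NUP153, its neighbour on the nuclear side of the pore, lay just outside the threshold at -0.69. All 8 also had an adjusted p below 0.05 and the same direction under TMM scaling. Both scalings use the same counts, so this is no independent support. By adjusted p under TMM scaling 18 of the 39 members were lower, against 28.6% of all tested genes. RANGAP1 was the single member that was higher by adjusted p under TMM scaling, where 27.3% of all tested genes were. In 37 of the 39 members every shDYRK1A library lay below every shControl library, and the same held for 63.6% of all tested genes. The exceptions were KPNA1 and RANGAP1. The lowest library of each group was the same in nearly all members. It was shControl 1C in 39 of 39 and shDYRK1A 1B in 38 of 39. The normalized sum over all human genes was also lowest in these libraries, at 40116360 in shControl 1C and 31230657 in shDYRK1A 1B. In the other libraries it was 48090252 and 47835662 in shControl and 36658657 and 33310112 in shDYRK1A. The share of all tested genes with the same lowest libraries was not counted.

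**Figure D1:**
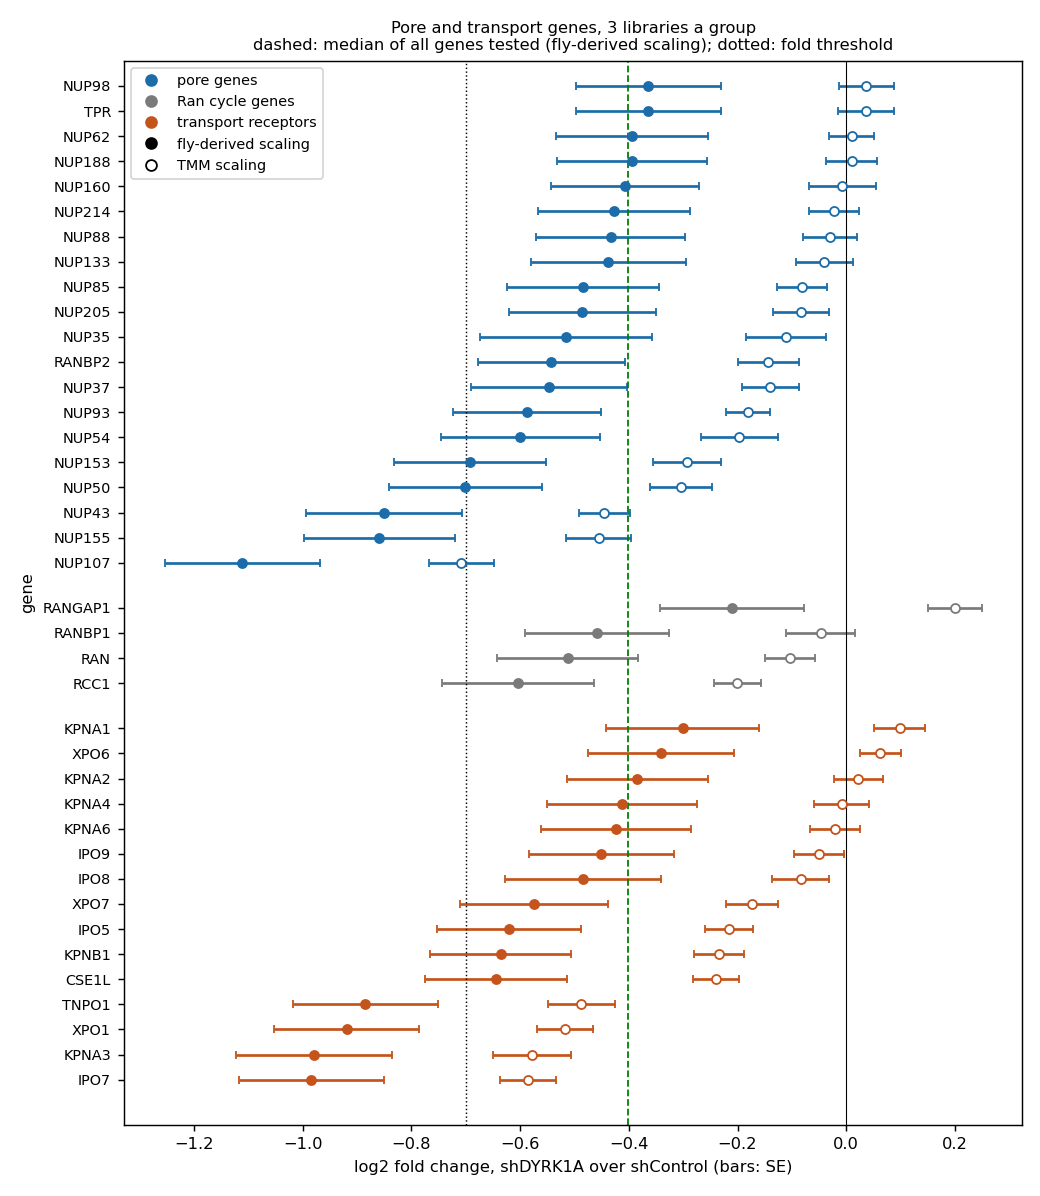
Log2 fold change of each tested member (horizontal axis, shDYRK1A over shControl, bars are standard errors of the fit) under fly-derived scaling (filled) and TMM scaling (open), grouped as pore, Ran cycle and receptor genes, with 3 libraries per group. All filled points lie below 0, NUP107 is the lowest at -1.11, and RANGAP1 is the highest under both scalings.

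**Figure D2:**
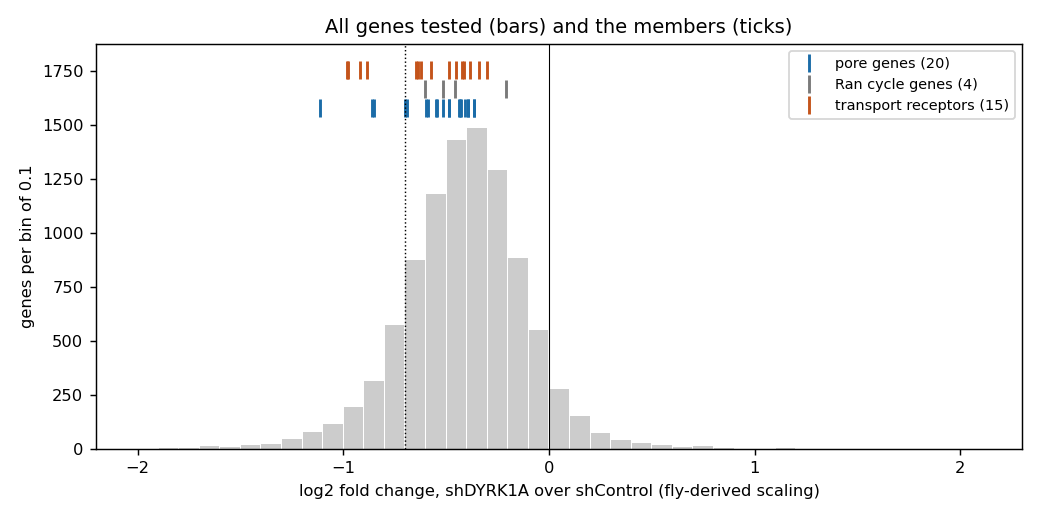
Number of genes per bin of log2 fold change over all tested genes (bars, fly-derived scaling) with the position of each of the 20 pore, 4 Ran cycle and 15 receptor genes as a tick. The members sit within the body of the distribution and its lower side, and none lies above 0.

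The outer ring of the pore is a Y-shaped scaffold that anchors to both faces of the nuclear envelope. NUP107 (ENSG00000111581), which gives this complex its usual name, lies on the plus strand of chromosome 12 at chr12:68686734-68745809 (GRCh38). It was measured at 3894, 3976 and 3234 normalized counts in shControl and at 1879, 1418 and 1844 in shDYRK1A. The knockdown libraries all lay far below the controls, at 46.3% of the control mean, a log2 fold change of -1.11 ± 0.14 (SE; adjusted p = 6.46e-13, edgeR). Under TMM scaling NUP107 kept a log2 fold change of -0.71, and it was the only member past both thresholds there, though it fell short of the fold threshold when library shControl 1B or library shDYRK1A 1B was left out. Ordered by fold change under the fly-derived scaling, its rank was 177 from the lowest of the 9697 tested genes.

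NUP43 (ENSG00000120253, chr6:149724315-149749665, minus strand), another member of the Y-shaped scaffold, was measured at 2968, 2928 and 2395 normalized counts in shControl and at 1686, 1373 and 1539 in shDYRK1A. The groups did not overlap, and the log2 fold change was -0.85 ± 0.14 (SE; adjusted p = 6.01e-08, edgeR). Exons of PCMT1 on the opposite strand cover 5.03% of its exon sequence. The other 4 tested genes listed here for the outer ring fell by less. Their log2 fold changes were -0.55 for NUP37, -0.48 for NUP85, -0.44 for NUP133 and -0.41 for NUP160. Of these, NUP160 and NUP133 lay within 0.05 of 0 under TMM scaling, at -0.01 and -0.04. The subunits of this complex come together in fixed proportions in the protein. Over the 6 genes listed for it here, the fold changes of the RNAs ran from -1.11 to -0.41.

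The inner ring joins the scaffold to the membrane and to the central channel. NUP155 (ENSG00000113569, chr5:37288137-37371181, minus strand) was measured at 5794, 5388 and 4474 normalized counts in shControl and at 3149, 2393 and 3089 in shDYRK1A. It stood at 55.1% of the control mean with no overlap between the groups, a log2 fold change of -0.86 ± 0.14 (SE; adjusted p = 1.45e-08, edgeR). NUP93, which links the inner ring to the channel, fell as well, with a log2 fold change of -0.59, and was also lower under TMM scaling, at -0.18. NUP35 fell to -0.51, NUP205 to -0.49 and NUP188 to -0.39 on the same scale, and these 3 had no adjusted p below 0.05 under TMM scaling.

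Proteins with phenylalanine-glycine repeats fill the central channel and form the barrier that receptors pass. Of the 3 tested here, NUP54 fell with a log2 fold change of -0.60, whereas NUP62 and NUP98 had values of -0.39 and -0.36 under the fly-derived scaling and stood at 0.01 and 0.04 under TMM scaling. Exons of other genes on the same strand cover 12% of the exon sequence of NUP62, so its count is less certain. On the cytoplasmic face, where cargo is released after export, RANBP2, NUP88 and NUP214 fell with log2 fold changes of -0.54, -0.43 and -0.43. Reads of RANBP2 can be shared with its near-identical RGPD copies, and 18.7% of the exon sequence of NUP88 is covered by RABEP1 and RPAIN on the opposite strand. NUP210, the 1 transmembrane pore gene on the list, had normalized counts of 2.44, 6.81 and 3.89 in shControl and 4.73, 0.926 and 3.29 in shDYRK1A, too low for a test.

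The nuclear basket is the filamentous structure on the inner face of the pore. NUP50 (ENSG00000093000, chr22:45163841-45188015, plus strand), a mobile basket protein that takes part in the release of imported cargo, was measured at 4156, 4000 and 3433 normalized counts in shControl and at 2766, 1956 and 2407 in shDYRK1A. The groups did not overlap, with a log2 fold change of -0.70 ± 0.14 (SE; adjusted p = 5.62e-06, edgeR). Its call was lost without library shControl 1A, shControl 1B or shDYRK1A 1B, since its fold change lay at the threshold. NUP153, which tethers the basket to the pore, fell with a log2 fold change of -0.69 and lay at -0.29 under TMM scaling. TPR, the main filament protein of the basket, lay at -0.36 and at 0.04 under TMM scaling. Within the basket NUP50 and NUP153 thus lay together and TPR apart.

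In the Ran cycle, the exchange factor RCC1 loads RAN with GTP on chromatin, while RANGAP1 and its helper RANBP1 bring about GTP hydrolysis in the cytoplasm. RCC1, RAN and RANBP1 fell with log2 fold changes of -0.60, -0.51 and -0.46, and of these RCC1 had an adjusted p below 0.05 under TMM scaling as well, at -0.20. Exons of SNHG3 on the same strand cover 6.22% of the exon sequence of RCC1.

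RANGAP1 (ENSG00000100401, chr22:41245611-41286251, minus strand) was the single member with an adjusted p below 0.05 and a higher level under TMM scaling. The shControl libraries held 10865, 11608 and 9219 normalized counts of it and the shDYRK1A libraries 9477, 8656 and 9268, and the groups overlapped. The log2 fold change was -0.21 ± 0.13 (SE; adjusted p = 0.149, edgeR) under the fly-derived scaling and 0.20 ± 0.05 (SE; adjusted p = 0.00485, edgeR) under TMM scaling. As a share of all gene counts, in CPM, it stood at 226, 243 and 230 CPM in shControl and at 259, 277 and 278 in shDYRK1A, where the groups did not overlap. Its share of the human counts was thus higher after knockdown, while relative to fly RNA its difference had no adjusted p below 0.05. The latter depended on library shControl 1C, without which the fly-scaled log2 fold change was -0.30 with an adjusted p of 0.0135 (edgeR).

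Importin alpha proteins are adaptors that bind the classical nuclear localization signal and hand the cargo to importin beta. KPNA3 (ENSG00000102753, chr13:49699307-49792921, minus strand) was the lowest of the 5 tested, at 3786, 3856 and 2983 normalized counts in shControl and at 2088, 1416 and 1886 in shDYRK1A. It stood at 50.7% of the control mean with no overlap, a log2 fold change of -0.98 ± 0.14 (SE; adjusted p = 2.56e-10, edgeR) and -0.58 under TMM scaling. Its paralogue KPNA4 was measured at 5230, 5028 and 4016 normalized counts in shControl and at 3984, 3057 and 3682 in shDYRK1A, a log2 fold change of -0.41 and of -0.01 under TMM scaling. KPNA6 and KPNA2 fell with log2 fold changes of -0.42 and -0.38, with TMM values of -0.02 and 0.02.

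KPNA1 (ENSG00000114030, chr3:122421949-122514945, minus strand) was the second highest member. It had 3799, 3780 and 3240 normalized counts in shControl and 3324, 2527 and 2930 in shDYRK1A, and the highest knockdown library lay above the lowest control. The log2 fold change was -0.30 ± 0.14 (SE; adjusted p = 0.0493, edgeR), and the adjusted p rose above 0.05 with the replicate letter as a block, under either other filter on low counts, and without library shControl 1A, shControl 1B, shDYRK1A 1B or shDYRK1A 1C. Exons of AC083798.2 on the opposite strand cover 16.3% of its exon sequence.

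The makeup of the importin alpha pool moved with these changes. KPNA2, the most abundant of the 5, made up 75.5% ± 0.419 (SD, n = 3) of their summed counts per kb of exon in shControl. In shDYRK1A its share was 77.7% ± 0.859 (SD, n = 3). KPNA3 made up 7.91%, 8.54% and 7.97% of these length-corrected counts in the shControl libraries and 5.86%, 4.90% and 5.78% in the shDYRK1A libraries, without overlap. KPNA1 made up 4.20%, 4.43% and 4.58% in shControl and 4.94%, 4.63% and 4.76% after knockdown, also without overlap. KPNA4 and KPNA6 had mean shares of 5.20% and 6.80% in shControl and of 5.24% and 6.79% in shDYRK1A. KPNA5 and KPNA7, which were under the filter, are not among the 5 genes. These shares compare raw counts divided by the exon length of each gene.

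The importin beta family carries cargo directly or through an adaptor. IPO7 (ENSG00000205339, chr11:9384622-9448126, plus strand), an importer of ribosomal proteins and histones, was measured at 14587, 14315 and 12161 normalized counts in shControl and at 7845, 5733 and 7185 in shDYRK1A. The knockdown libraries lay near 50.6% of the control mean, a log2 fold change of -0.98 ± 0.13 (SE; adjusted p = 9.64e-12, edgeR) and -0.59 under TMM scaling. TNPO1 (ENSG00000083312, chr5:72816312-72916733, plus strand), the import receptor for many RNA-binding proteins, was measured at 13607, 13138 and 11187 normalized counts in shControl and at 7822, 5468 and 7253 in shDYRK1A. Its log2 fold change was -0.88 ± 0.13 (SE; adjusted p = 9.34e-10, edgeR), with no overlap between the groups.

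KPNB1, importin beta itself, and IPO5 fell with log2 fold changes of -0.64 and -0.62, and both also lay lower under TMM scaling, at -0.23 and -0.22. IPO9, an importer of histones and actin, fell with a value of -0.45, and IPO8, the paralogue of IPO7, with -0.48, at 2688, 2671 and 2188 normalized counts in shControl and 2031, 1523 and 1837 in shDYRK1A. Neither of these 2 had an adjusted p below 0.05 under TMM scaling. IPO4 had between 1.65 and 17 normalized counts per library and was not tested. Exons of AL136295.4 on the same strand cover 69.3% of its exon sequence, so most reads from it could not be given to 1 gene by a counter that drops ambiguous reads.

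Exportins bind their cargo together with RAN-GTP in the nucleus. XPO1 (ENSG00000082898, chr2:61477849-61538626, minus strand), also known as CRM1, the receptor for leucine-rich export signals, was measured at 17012, 17195 and 13869 normalized counts in shControl and at 9527, 7059 and 8835 in shDYRK1A. It stood at 52.9% of the control mean, a log2 fold change of -0.92 ± 0.13 (SE; adjusted p = 1.63e-10, edgeR) and -0.52 under TMM scaling, with no overlap between the groups. CSE1L, which returns importin alpha to the cytoplasm, fell with a log2 fold change of -0.64, at 22456, 22015 and 18183 normalized counts in shControl and 14676, 11805 and 13612 in shDYRK1A. XPO7 fell with a value of -0.57. XPO6, the exportin for actin, was the third highest member, at 8321, 8285 and 7051 normalized counts in shControl and 6768, 5635 and 6274 in shDYRK1A, a log2 fold change of -0.34 ± 0.13 (SE; adjusted p = 0.0201, edgeR) and of 0.06 under TMM scaling. The groups did not overlap for XPO6, although its highest knockdown library lay close to the lowest control.

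**Figure D3:**
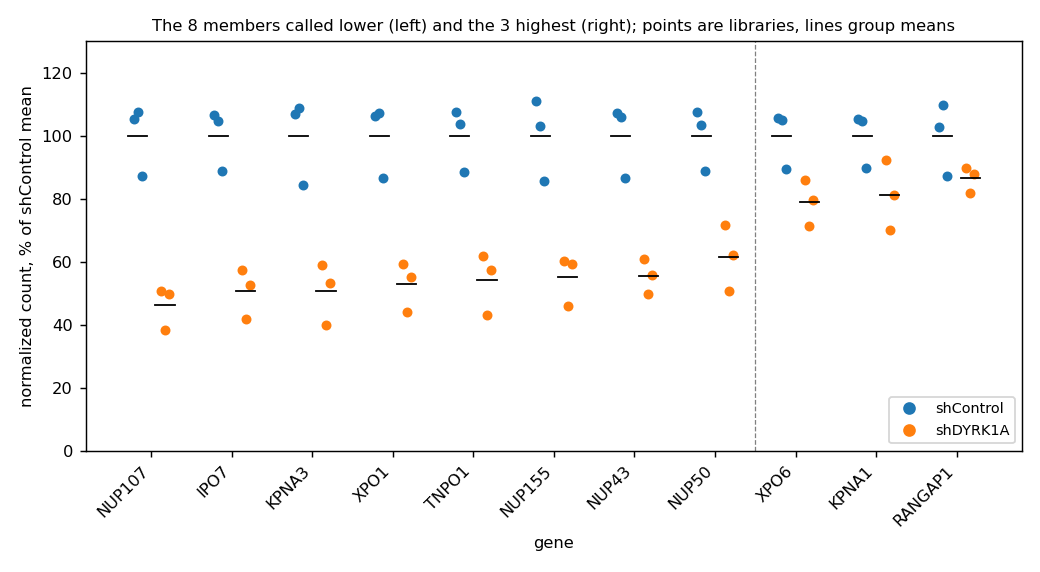
Normalized count in each library as a percentage of the shControl mean (vertical axis) for the 8 members called lower and the 3 highest members; each point is 1 library and each line a group mean. The groups are separate for the first 8 and for XPO6 and overlap for KPNA1 and RANGAP1, and 1 control library lies below the other 2 throughout.

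The pore and receptor genes were then compared as classes. Of 20 tested pore genes 4 were called lower, and of 15 tested receptors 4 were, beside none of the 4 Ran cycle genes. The share over all tested genes was 14.3%. The median log2 fold change was -0.50 over the pore genes and -0.57 over the receptors, and under TMM scaling -0.10 and -0.17. The difference of these medians was 0.07, and it ranged from 0.03 without library shControl 1B to 0.13 without library shControl 1A, with 0.11 without shDYRK1A 1C, 0.05 without shDYRK1A 1B and 0.05 without shControl 1C. Within each library, the mean log2 normalized count of the pore genes minus that of the receptors was -1.07, -1.10 and -1.07 in shControl and -1.05, -1.02 and -1.03 in shDYRK1A. The knockdown libraries were thus less far apart between the classes than any control, by 0.04 on average, a small step beside the range of fold changes within either class. Percent of the control mean ran from 46.3% to 77.7% among pore genes and from 50.6% to 81.2% among receptors, so the classes overlapped over nearly their whole range.

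Levels were compared between genes as normalized counts per kb of exon. KPNA2 was the highest in shControl at 7332 per kb, followed by CSE1L at 5496, RAN at 4785 and KPNB1 at 3354, and NUP35 was the lowest tested member at 206. Of the 8 highest members 5 were receptors and the other 3 were Ran cycle genes. Of the 10 lowest 7 were pore genes. KPNA2, KPNB1, CSE1L and RAN, which together carry out the classical import cycle, thus stood above every pore gene, the highest of which was NUP88 at 1021 per kb. All 41 members together took 0.687% to 0.706% of the gene counts in the shControl libraries and 0.602% to 0.655% in the shDYRK1A libraries.

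**Figure D4:**
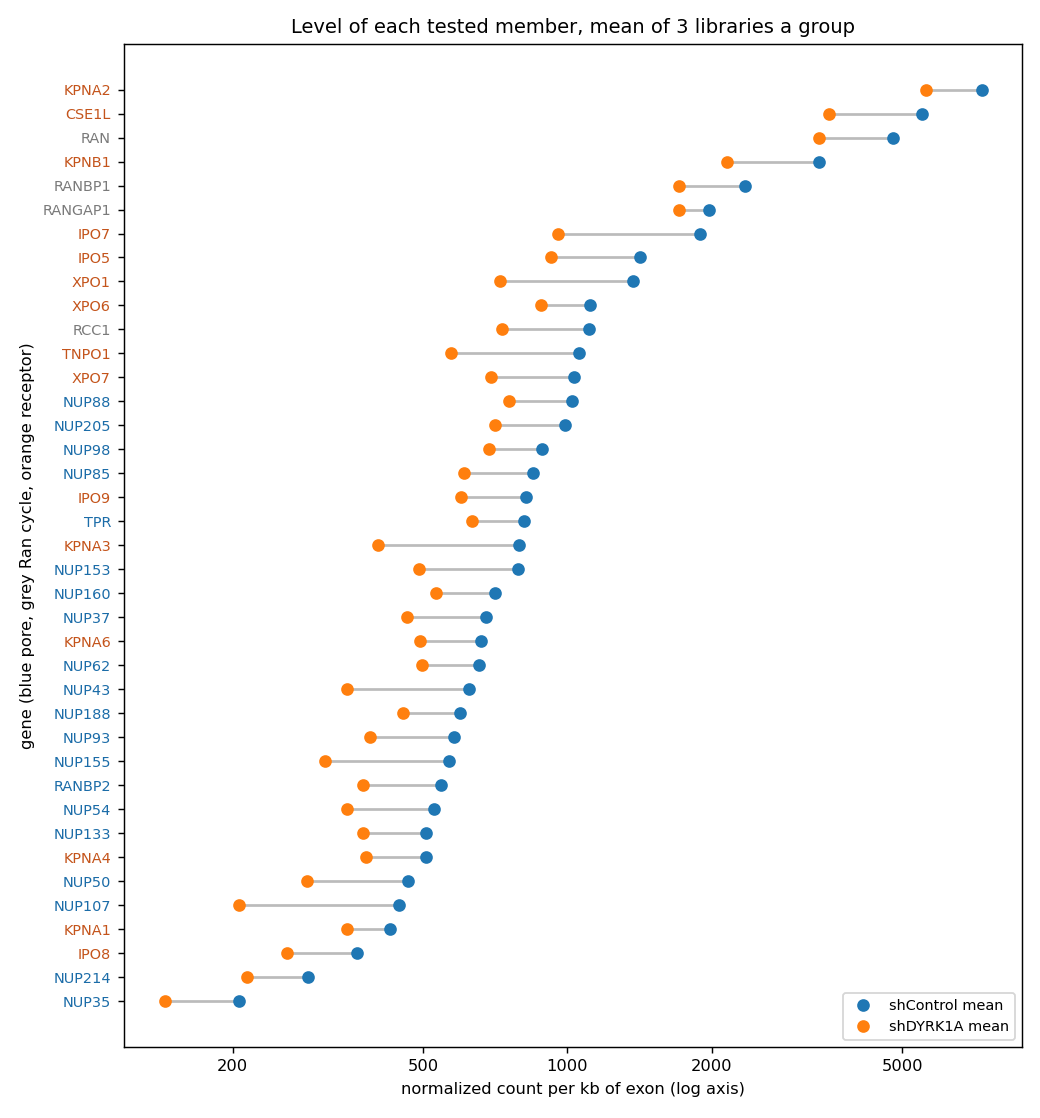
Normalized count per kb of exon (log axis) of each tested member, as the mean of 3 libraries per group. KPNA2, CSE1L, RAN and KPNB1 lie highest in shControl, NUP35 is the lowest, and the shDYRK1A mean lies to the left of the shControl mean for every gene.

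A ratio of 2 genes within a library does not depend on the scaling. Ratios were taken for 8 pairs of raw counts, 4 of paralogues and 4 of partner proteins, and tested with a two-sided exact permutation test. For KPNA3 over KPNA4 the log2 ratio was -0.47, -0.38 and -0.43 in shControl and -0.93, -1.11 and -0.96 in shDYRK1A, a mean difference of -0.58 (exact permutation p = 0.1, adjusted p = 0.133 over the 8 pairs). For IPO7 over IPO8 it was 2.44, 2.42 and 2.47 in shControl and 1.95, 1.91 and 1.97 in shDYRK1A, a mean difference of -0.50 with the same exact permutation p. The value of 0.1 is the smallest that 3 against 3 libraries can give. In both pairs the groups were separated by several times their spread, and in both the more strongly changed paralogue was one of the members called lower.

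KPNA2 over CSE1L, the adaptor over the exportin that recycles it, moved from 0.18, 0.11 and 0.12 to 0.40, 0.44 and 0.38, a mean difference of 0.26. KPNA2 had 25488, 23779 and 19796 normalized counts in shControl and 19300, 15963 and 17656 in shDYRK1A. RANGAP1 over RANBP2, which hold each other at the cytoplasmic face of the pore, moved from 0.60, 0.74 and 0.63 to 0.87, 1.20 and 0.93, a mean difference of 0.35. RANBP2 itself had 7172, 6961 and 5958 normalized counts in shControl and 5186, 3757 and 4851 in shDYRK1A. NUP54 over NUP62 differed by -0.21 and KPNA1 over KPNA6 by 0.12, and in these 4 pairs too the groups did not overlap (exact permutation p = 0.1 each, adjusted p = 0.133). Leaving out library shDYRK1A 1B brought the difference for NUP54 over NUP62 to -0.12, and leaving out shDYRK1A 1A brought that for KPNA1 over KPNA6 to 0.08.

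The remaining pairs overlapped between the groups. NUP188 over NUP205 differed by 0.09 (exact permutation p = 0.2, adjusted p = 0.229), and by 0.04 without library shControl 1A. NUP88 over NUP214, which bind each other on the cytoplasmic face, differed by -0.01 (exact permutation p = 1, adjusted p = 1), and the sign of this difference turned without library shControl 1A or shDYRK1A 1B.

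**Figure D5:**
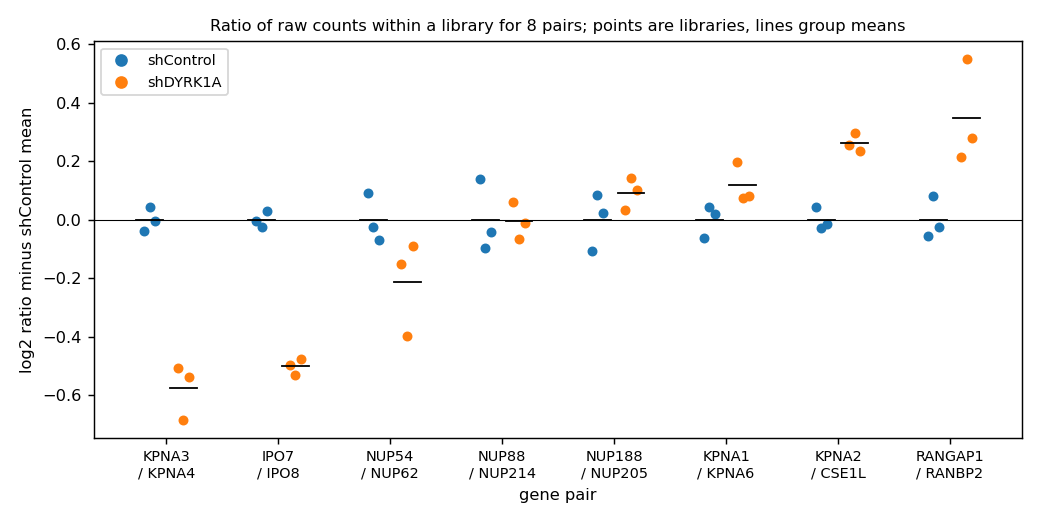
Log2 ratio of raw counts of 2 genes within a library, minus the shControl mean of that ratio (vertical axis), for 8 pairs; each point is 1 library and each line a group mean. KPNA3 over KPNA4 and IPO7 over IPO8 lie about 0.5 lower in shDYRK1A, RANGAP1 over RANBP2 and KPNA2 over CSE1L lie higher, and NUP88 over NUP214 overlaps.

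A further 35 genes of the same pathway, chosen by function, were found in the table, and 27 of them were tested. Of these, 18 (66.7%) fell with an adjusted p below 0.05 and 5 (18.5%) were called lower, where 63.4% and 14.3% of all tested genes were. Their median was -0.46, against -0.51 over the members and -0.40 over all genes tested. XPOT, the exportin for transfer RNA, showed the largest decrease of both lists. It had 7594, 7114 and 6026 normalized counts in shControl and 2616, 1912 and 2569 in shDYRK1A, a log2 fold change of -1.55 ± 0.14 (SE; adjusted p = 1.64e-25, edgeR) and -1.14 under TMM scaling, with no overlap between the groups. The other genes called lower were IPO11 at -0.80, XPO4 at -0.79, AHCTF1, which seeds new pores on chromatin, at -0.78, and NXT1, a cofactor of messenger RNA export, at -0.74. XPO4 and AHCTF1 lost the call without library shDYRK1A 1B, which left 3 genes, and NXT1 lost it without shControl 1B. At the other end, AAAS, a pore protein, lay at -0.09 (adjusted p = 0.582, edgeR) under the fly-derived scaling and at 0.32 (adjusted p = 0.000272, edgeR) under TMM scaling. Under TMM scaling 7 of the 27 genes were higher by adjusted p, AAAS among them, and 9 were lower. The shares over all tested genes were close to these, at 27.3% higher and 28.6% lower. KPNA5, an importin alpha named after its values were seen, was under the filter. It had 235, 207 and 181 normalized counts in shControl and 338, 236 and 301 after knockdown, with no overlap. Under either other filter on low counts its log2 fold change was 0.49 (adjusted p = 0.0205 with filterByExpr and 0.0311 with no filter beyond 1 count, edgeR).

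Cell cycle genes moved in the same libraries. Of 43 S phase genes 38 (88.4%) were called lower, with a median log2 fold change of -0.92 and of -0.52 under TMM scaling. Of 54 genes of G2 and M phase 21 (38.9%) were called lower, with a median of -0.61 and of -0.21 under TMM scaling. Over all tested genes 14.3% were called lower, with a median of -0.40 and of 0.00 under TMM scaling. RANGAP1 stands on the second list and is its only gene in common with the members. The summed normalized count of the S phase list was 192881 to 240057 in shControl and 110230 to 131755 in shDYRK1A, and that of the second list was 359342 to 435123 and 235074 to 289043. The part of these changes in the values of the pore and transport genes was not tested.

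Sequences near the genes were examined because the kinase is known to be recruited to promoters with the palindrome TCTCGCGAGA. RefSeq promoters (GRCh38.p14, 250 bases before to 50 after the annotated start) matched 36 of the 41 members, with no entry for KPNB1, NUP43, XPO7, RANBP1 and KPNA4. The whole palindrome was in 0 of the 36 windows, and in 1.16% of the windows of 7594 tested genes. Its inner letters CTCGCGAG were in 1 of them, that of NUP54, against 2.78% of the tested genes. The letters CGCATGCG, the centre of the site of the factor NRF1, were in 3 windows, those of NUP107, NUP50 and NUP62, or 8.33% against 5.12%. TTTGGCGC, a form of the E2F site, was in 1 window, that of NUP155, against 1.46%. Both strands were searched, each motif separately. Over the tested genes the median log2 fold change was -0.39 with CGCATGCG and -0.41 without. For TTTGGCGC it was -0.48 with and -0.41 without, and for CTCGCGAG -0.42 with and -0.41 without. Of the genes shown, NUP107, NUP50 and NUP155 were called lower, and so was NUP43, which had no window. The stretches are shown 5′ to 3′ on the strand of the gene with the matched letters in capitals.
NUP107, chr12:68686884-68686913, plus strand: ggctgaagtcgCGCATGCGctagatgggaa
NUP50, chr22:45163859-45163888, plus strand: agggagctgggCGCATGCGccgcgtaaggg
NUP62, chr19:49929544-49929573, minus strand: cgggcccagtgCGCATGCGcagccgcgcgc
NUP155, chr5:37371067-37371096, minus strand: caaggcgctcgTTTGGCGCgcgcgccctag
NUP54, chr4:76148608-76148637, minus strand: ggcggcacaccCTCGCGAGcgtcccagcat

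The matched letters began 83 bases before the RefSeq start of NUP107, 55 before that of NUP50 and 58 before that of NUP62. In NUP155 they began at base 22 of the transcribed part, and in NUP54 229 bases before the RefSeq start. The GENCODE gene coordinates of NUP107, NUP50 and NUP62 begin further upstream, so there the same letters lie inside the gene. NUP62 shares its letters with NUP107 and NUP50 but not their fold changes, at -0.39 against -1.11 and -0.70. Of the more common motifs, CCGGAAG, part of the site of ETS factors, was in 11 windows against 24.9% of the tested genes, and CCAAT was in 18 against 44.1%. TTTGAA, one form of the cell cycle homology region found in promoters of genes that peak in G2 and M phase, was in 12 of 36 windows, or 33.3% against 13.6%. Members with TTTGAA had a median of -0.53 on the log2 scale, compared with -0.47 for the rest, and over the tested genes the medians were -0.46 with it and -0.40 without.

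In the 3′ UTRs, the 7-letter word TGAAGTA was counted, a word chosen because it was already known to go with lower fold changes over all genes of these libraries. It was in 6 of 39 members, or 15.4%, and in 13.4% of 9213 tested genes with a 3′ UTR of at least 50 bases. A single annotated transcript per gene was searched, with a 3′ UTR of 278 bases for TNPO1, 2932 for IPO7 and 2493 for KPNA3. Among the members, the median log2 fold change was -0.51 with the word and -0.51 without, while over the tested genes it was -0.57 with the word and -0.39 without. The latter contrast follows from how the word was chosen and is no independent result. Median 3′ UTR lengths differed as well, at 3199 bases with the word and 1017 without over the tested genes, and at 2406 and 1059 over the members. Of the 8 members called lower, IPO7 and KPNA3 carry it once each, and their paralogues IPO8 and KPNA4 do not carry it. These sites are shown with the word in capitals because the 2 pairs gave the widest changes in ratio, together with 3 of the 4 members with the word that were not called lower.
IPO7, chr11:9447022-9447050, plus strand: gtcaataaaaaTGAAGTAgttgtatatat
KPNA3, chr13:49701016-49701044, minus strand: tcctgctgtttTGAAGTAatcaaatgctg
KPNA1, chr3:122424415-122424443, minus strand: ttggctaaaagTGAAGTAgcataactcag
TPR, chr1:186313421-186313449, minus strand: gctctcctttaTGAAGTAaacattaaaga
NUP133, chr1:229440379-229440407, minus strand: ctcttaccgtgTGAAGTAgagtcatcctg

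KPNA1, TPR, NUP133 and XPO7, the other carriers, had log2 fold changes of -0.30, -0.36, -0.44 and -0.57. Whether it bears on IPO7 or KPNA3 was not tested. No match in these windows says only that the letters are not there.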

How the data were processed

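Per the paper's methods, poly(A) RNA libraries made with a stranded kit were sequenced as paired reads on an Illumina instrument, and the submitters' processing notes name STAR, DESeq2 and the builds hg38 and dm3. The counting tool, its strand setting and the annotation are not given in the sources used here. The deposited files hold raw counts per gene for each library and a table of normalized counts (a signal scale), for which the authors divided the counts by size factors from fly genes. The constants relating the deposited tables (0.821 to 1.21) were taken as size factors. Authors' fold changes and p-values in a further table were not used.

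Counts were tested with edgeR 4.0.16 (glmQLFit, robust) over 9697 genes with a mean above 10 normalized CPM, with Benjamini-Hochberg adjustment over all of them. Genes were called at an adjusted p under 0.05 with a change beyond 0.7 on the log2 scale. Of the members' 41 coordinates all equalled GENCODE release 29, which gave exon lengths, overlaps and UTRs. Overlap above 5% on the same strand was found in 5 members and on the opposite strand in 8. The fits were tested on simulated data. Other scalings, filters, a DESeq2 1.42.0 fit, a replicate block and each library left out were tried as alternatives. TMM fits with a library left out or with the block, and the names of genes called there, were added after seeing the data. All members could be named. Values per library are given for called members that kept direction and adjusted p under TMM, the 3 highest, pairs described and DYRK1A. Of the wider list, called genes and the highest are named. The members and lists were chosen with earlier results of these data known.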

Additional observations from a re-analysis of the deposited data

How the results depend on the processing

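Scaling decided most counts. Under TMM and median-of-ratios scaling 1 member was called lower, 18 and 17 were lower by adjusted p and 1 was higher, and 1 further pathway gene was called lower. Of all 9697 tested genes, 1.93% and 1.90% were called lower under these scalings. By adjusted p alone, 28.6% and 28.0% of them were lower and 2652 and 2709 genes were higher. The medians became -0.103 and -0.100 over the members, -0.097 and -0.094 over pore genes and -0.17 and -0.17 over receptors. Values turned positive, in that order, for NUP188 (0.0099 and 0.013), NUP62 (0.0098 and 0.013), NUP98 (0.037 and 0.040), TPR (0.036 and 0.039), RANGAP1 (0.20 and 0.20), KPNA1 (0.10 and 0.10), KPNA2 (0.022 and 0.025), XPO6 (0.063 and 0.066) and AAAS (0.32 and 0.32). A fold threshold of 0.5 called 20 members lower and one of 1 called 1. The share of all tested genes called at these thresholds was not counted, so these numbers have no background beside them. The median over all tested genes was itself -0.40 under the fly-derived scaling.

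Leaving out 1 library at a time gave 7 to 13 members called lower, 25 to 39 lower by adjusted p, 3 to 6 further pathway genes called lower and, under TMM scaling, 1 to 2 members higher. Over all 9697 tested genes the same omissions gave 908 to 2093 called lower and 4049 to 7552 lower by adjusted p. The difference of class medians ranged from 0.032 to 0.130 and the difference for NUP88 over NUP214 from -0.054 to 0.062. The causes were not tested. The DESeq2 Wald test kept the side of the threshold of all 46 named genes.

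The labels do not say what the replicate letters mark. Deviations of same-letter libraries from their group means correlated over genes with r = 0.151 (1A), 0.0729 (1B) and 0.128 (1C). Libraries of different letters had r from -0.0939 to -0.0143, so each library correlated best with its own letter. Whether the letters mark shared batches was not tested. With the letter as a replicate block 9 members were called lower and 37 were lower by adjusted p, 1 gene of 46 lost its adjusted p, and the median within-letter difference for NUP88 over NUP214 was 0.029. NUP210 and IPO4 were too low to pass the filter and were not tested.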
